A study of Mus musculus with 12 samples.

Results

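The 9 genes described here are Tet1, Tet2, Tet3, Dnmt1, Dnmt3a, Dnmt3b, Uhrf1, Tdg and Mbd3. They write, read or remove methyl groups on cytosine in DNA, except Mbd3, which encodes a subunit of the NuRD repressor complex. They were found by the mouse symbol of their Ensembl identifier among the 54838 genes of the count tables, and all 9 were present and passed the filter on low counts. RNA was sequenced from oligodendroglial-enriched spinal cord of mice at postnatal day 60, in 12 libraries, with 3 in each of 4 groups. The groups were control (Olig1+/+;Tet1fl/fl) and Tet1 mutant (Olig1cre/+;Tet1fl/fl), each either unlesioned or lesioned with lysolecithin (LPC), which strips myelin where it is injected, and taken 4 days later (4dpl). Every animal carried the floxed Tet1 alleles, and the sample labels call the control genotype wildtype. Cre was expressed from the Olig1 locus, so the mutants also carried 1 altered Olig1 allele, and recombination was restricted to cells that had used that locus. The cells were enriched on a Percoll gradient and were not sorted, and the unlesioned tissue came from the side of the cord opposite the injection.

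DNA methyltransferases place a methyl group on cytosine, mostly where it precedes guanine (CpG). DNMT1, brought to newly copied DNA by UHRF1, keeps the pattern through cell division, while DNMT3A and DNMT3B methylate new sites. The TET enzymes oxidise the methyl group to hydroxymethylcytosine and beyond, the glycosylase TDG cuts out the most oxidised forms, and MBD3 is a subunit of the NuRD repressor complex.

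Dnmt1 and Uhrf1 are the pair of members whose levels were most alike over the 12 libraries, and parts of their promoters are shown for that reason. RefSeq lists 14 start sites for the 9 genes on GRCm38.p6, each with a window of 250 bases before and 50 after the start. The letters TTTCGCGC and TTTGGCGC, forms of the motif of E2F factors, which act at the entry into DNA synthesis, were searched on both strands of these windows. Dnmt1 and Uhrf1 were the 2 members with a match. TTTCGCGC occurs in 0.32% of the 32851 RefSeq promoter windows of the mouse and TTTGGCGC in 0.51%. The sequences below run 5′ to 3′ on the strand of the gene, with the matches in capitals, and the first Dnmt1 match reads on the opposite strand.
Dnmt1, chr9:20952824-20952853, minus strand: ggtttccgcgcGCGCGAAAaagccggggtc
Dnmt1, chr9:20952574-20952603, minus strand: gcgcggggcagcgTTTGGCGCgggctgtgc
Uhrf1, chr17:56304063-56304312, plus strand: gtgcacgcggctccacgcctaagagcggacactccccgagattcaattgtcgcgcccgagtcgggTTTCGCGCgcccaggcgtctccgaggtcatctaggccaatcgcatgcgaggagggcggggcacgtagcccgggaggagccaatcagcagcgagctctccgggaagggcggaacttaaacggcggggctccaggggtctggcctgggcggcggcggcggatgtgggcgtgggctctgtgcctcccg
In the GENCODE M21 annotation both Dnmt1 matches fall in the 5′ untranslated part of first exons, and the Uhrf1 match falls in no exon. The windows holding them contain 33 CpG each, against a median of 7 over all windows. The matches are letters in a sequence, and binding was not measured.

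Levels are given as CPM, the count of a gene relative to the library total after scaling by TMM, which sets libraries to a common scale. The libraries held between 34805086 and 67251544 counts. The preparation was mixed: markers of oligodendrocytes summed to between 14760 and 70150 CPM per library, those of neutrophils to between 21250 and 117300 CPM and those of red blood cells to between 12100 and 99960 CPM. Microglial markers summed to between 1803 and 10210 CPM. In such bulk RNA, fewer cells of a type and less RNA per cell cannot be told apart. One library stood apart: control unlesioned replicate 1 had a TMM factor of 0.88, in the range of the lesioned libraries (0.81 to 0.93), whereas the other 5 unlesioned libraries lay between 1.14 and 1.302. The scale of the libraries also bears on each lesion comparison. After lesion the median log2 fold change was -0.28 over all 31109 genes tested and 0.40 over the 13616 genes with a mean log2 CPM of at least 1, the class to which all 9 members belong. Taking the TMM factors from genes with at least 10 counts in every library, the alternative factors named below, moved the lesion changes averaged over genotypes by -0.29 on the log2 scale.

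Per kilobase of exon, Mbd3 was the most abundant of the 9 genes, with a mean of 32.9 CPM per kb, and was above the next gene in 12 of 12 libraries. Uhrf1 (10.5 CPM per kb) and Dnmt1 (9.64) followed and were not separated, Uhrf1 being the higher in 8 of 12 libraries. Dnmt3a had 6.16 CPM per kb, below Dnmt1 in 11 libraries. Among the TET genes the order was Tet3 (3.94 CPM per kb), Tet2 (2.48) and Tet1 (0.909), and Tet2 exceeded Tet1 in 12 of 12 libraries. Tdg (2.99 CPM per kb) lay between Tet3 and Tet2 and was above Tet2 in 7 of 12 libraries. Tet1 and Dnmt3b (0.888 CPM per kb) were the least abundant and could not be ranked, with Tet1 the higher in 6 of 12. The lowest count behind any of these levels was 122, for Dnmt3b.

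**Figure D1:**
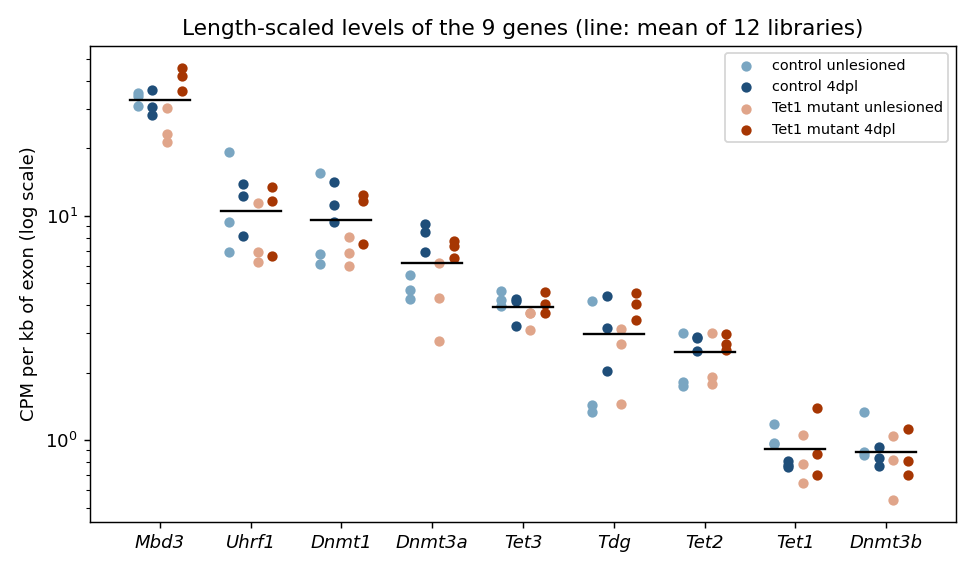
Length-scaled level of each of the 9 genes (y axis, CPM per kb of exon, log scale), with 1 point per library coloured by group and a line at the mean of 12 libraries. Mbd3 sits above all others at 32.9 CPM per kb, and Tet1 and Dnmt3b sit together near 0.9 CPM per kb.

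Tet1, the gene deleted in the mutant, was counted first as a check of the labels. Tet1 (ENSMUSG00000047146) lies on chromosome 10 of GRCm38 (62804570 to 62908996, minus strand). The deletion removes exon 4, and GENCODE numbers 2 different exons 4 in its coding transcripts, of 91 and 2203 bases, which make up 0.589% and 14.3% of the exon length counted. Transcripts from a deleted allele can therefore still be counted, and the gene-level count checks the deletion only weakly. Unlesioned control libraries had 15.0, 14.9 and 18.3 CPM of Tet1, and the unlesioned libraries labelled Tet1 mutant had 16.4, 9.94 and 12.1. At 4dpl the control libraries had 12.5, 11.7 and 12.04 CPM and the libraries labelled Tet1 mutant 13.4, 10.9 and 21.5. The genotypes overlapped in both conditions. The log2 difference of mutant from control was -0.33 unlesioned (95% interval -0.92 to 0.26) and 0.34 at 4dpl (-0.25 to 0.93). The library with 21.5 CPM, mutant 4dpl replicate 3, also held the highest level of Olig1, a transcription factor of the oligodendrocyte lineage, with 623 CPM against 88.7 to 338 in the other 11, and the highest sum of oligodendrocyte markers, 70150 CPM. The Pearson r of Tet1 with that sum was 0.447 over the 12 libraries (Spearman rho 0.119), 0.504 within the unlesioned and 0.894 within the lesioned ones. With the sum of macrophage markers it was -0.671 over the 12 libraries, and with that of cycling cells -0.654. The part of oligodendrocyte content in the Tet1 value of mutant 4dpl replicate 3 was not tested. Olig1 itself, the locus that carries Cre, differed between the genotypes by -0.44 unlesioned and 0.84 at 4dpl on the log2 scale (standard errors 0.45 and 0.45), and neither difference was called.

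Between lesioned and unlesioned control libraries the levels of Tet1 did not overlap and were lower at 4dpl, while in the mutant they did overlap. The log2 change was -0.42 (standard error 0.27) in the control (adjusted p = 0.287, quasi-likelihood test of edgeR, Benjamini-Hochberg) and 0.25 (standard error 0.27) in the mutant (adjusted p = 0.519). The difference between these changes, 0.67, had an adjusted p of 0.9999 by the same edgeR test. Neither change was called, a call needing a p under 0.01 and an adjusted p under 0.05. The sign of the change in the mutant was not stable. It was -0.052 under the alternative factors and lay between -0.055 and 0.500 with 1 library left out.

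Tet2 (ENSMUSG00000040943, chromosome 3, 133463679 to 133545139, minus strand) had 50.6, 29.6 and 30.7 CPM in the unlesioned control and 42.2, 48.4 and 48.5 in the control at 4dpl. In the mutant it had 50.6, 32.4 and 29.9 CPM unlesioned and 50.3, 45.2 and 42.7 at 4dpl. In both genotypes the first unlesioned library was as high as the lesioned ones and the other two were lower, so the conditions overlapped. The log2 change averaged over the genotypes was 0.31 (standard error 0.18, adjusted p = 0.174 by edgeR). Tet3 (ENSMUSG00000034832, chromosome 6, 83362373 to 83459084, minus strand) had the smallest averaged change of the 9 genes, with 51.7 to 77.0 CPM over all 12 libraries and a log2 change of 0.05 (standard error 0.14) that became -0.24 under the alternative factors and -0.04 under RLE scaling, the size factors of DESeq2. In unlesioned tissue all 3 libraries labelled Tet1 mutant (61.9, 51.7 and 61.6 CPM) were below the 3 controls (77.0, 70.2 and 66.2), with a log2 difference of -0.28 and an unadjusted p of 0.171 by edgeR. Of the length-scaled TET total, Tet3 made up 52.3% to 57.1% in the 4 group means, Tet2 28.8% to 37.1% and Tet1 10.6% to 14.1%. No difference in share with lesion or genotype passed an exact two-sided permutation test, where 0.005 is the smallest p the design allows. The smallest p was 0.105, for Tet2 with lesion (adjusted p = 0.833 over 10 tests). In the control the Tet2 share did not overlap, with 25.3% to 34.9% unlesioned and 36.3% to 38.2% at 4dpl, and in the mutant it did.

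Dnmt3a (ENSMUSG00000020661, chromosome 12, 3806007 to 3914443, plus strand) was the one member whose change passed the threshold. Control libraries had 78.1, 70.7 and 91.1 CPM unlesioned and 115, 153 and 141 at 4dpl. Libraries labelled Tet1 mutant had 103, 46.2 and 71.6 CPM unlesioned and 123, 108.5 and 129 at 4dpl. All 6 lesioned libraries were above all 6 unlesioned ones. Averaged over the genotypes, Dnmt3a rose 1.67-fold (log2 0.74, 95% interval 0.33 to 1.14, adjusted p = 0.0103, edgeR). The change was close in the control (0.77, standard error 0.27) and the mutant (0.71, standard error 0.27), neither of which was called alone (adjusted p = 0.0715 and 0.0970, edgeR), and the difference between them was -0.06 (95% interval -0.87 to 0.74). Without mutant unlesioned replicate 1 it was called in each genotype alone (control 0.79, mutant 1.06), and without mutant unlesioned replicate 2 in the control (0.785). The averaged call was lost on another scale. With the alternative factors the change was 0.46, with a p of 0.0177 by edgeR, past the limit of 0.01. With those genes alone it was not called either (adjusted p = 0.0675, edgeR). The call was also lost with a block on the file number (log2 0.79, adjusted p = 0.0560, edgeR). The averaged change of 0.74 was larger than in 82.4% of the genes with a mean log2 CPM of at least 1. So 1 of 9 members was called in this comparison, and 32.8% of all genes tested were called, 14.2% higher and 18.6% lower. Among genes with a mean log2 CPM of at least 1, 31.9% were called higher and 1.61% lower. Libraries of the 2 conditions did not overlap, 6 against 6, for 1 of 9 members and for 14.9% of all genes.

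**Figure D2:**
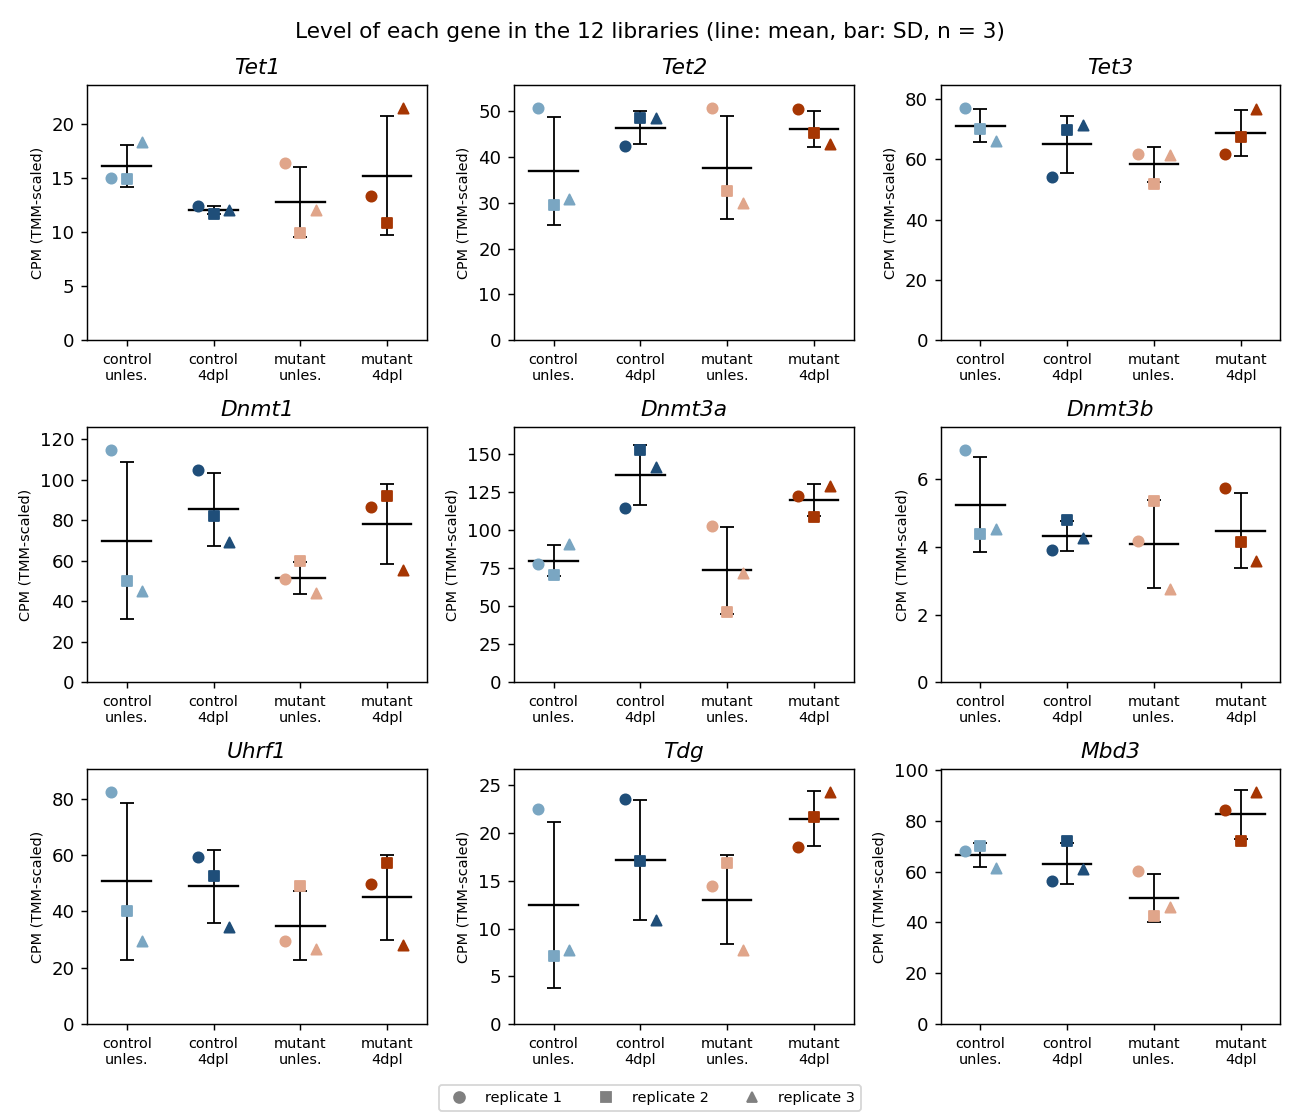
Level of each gene (y axis, CPM, starting at 0) in the 12 libraries, by group (x axis), with marker shape for the replicate number, a line at the group mean and a bar of 1 SD (n = 3). In Dnmt3a all 6 lesioned libraries lie above the 6 unlesioned ones, and in Dnmt1, Uhrf1 and Tdg control unlesioned replicate 1 lies far above the other two of its group.

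Several marker lists moved with Dnmt3a, the microglial one most closely over all 12 libraries, though not within the 6 unlesioned ones. Of 8 such markers none was at 0, and 6 were called higher after lesion averaged over the genotypes, among them P2ry12 (log2 1.085, standard error 0.33), with 4 called under the alternative factors. Their sum was 1803 to 3802 CPM in the unlesioned control, 1840 to 6142 in the unlesioned mutant, 5825 to 10210 in the control at 4dpl and 5826 to 9059 in the mutant at 4dpl. Over the 12 libraries Dnmt3a followed this sum with a Pearson r of 0.92 and a Spearman rho of 0.923 on the log2 scale. Within the 6 unlesioned libraries r was 0.803 and within the 6 lesioned ones 0.676. Dnmt3a also followed the sums of 6 Schwann cell markers (r = 0.885), 8 oligodendrocyte progenitor markers (0.742) and 10 oligodendrocyte markers (0.70), and ran against those of neutrophils (-0.786) and of B and plasma cells (-0.716). Within the lesioned libraries these values were 0.132, 0.632, -0.018, -0.596 and -0.815, and within the unlesioned ones 0.906, 0.415, 0.807, -0.85 and -0.59. After lesion 4 of 8 progenitor markers were called higher, and of the Schwann cell markers 1 was called higher and 2 lower. Libraries share the lesion as well as depth, so these values are descriptions, and the part of any of these cells in the Dnmt3a change was not tested. The gene nearest to Dnmt3a in pattern was Tmem176b (r = 0.983), followed by Fcgrt (0.981) and Hps4 (0.98), out of 13614 genes searched.

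Dnmt1 (ENSMUSG00000004099, chromosome 9, 20907209 to 20959888, minus strand) and Uhrf1 (ENSMUSG00000001228, chromosome 17, 56303321 to 56323486, plus strand) varied together within each condition. Dnmt1 had 114.5, 49.7 and 45.1 CPM in the unlesioned control and 104.7, 82.2 and 69.1 in the control at 4dpl. In the mutant it had 50.7, 59.7 and 44.2 CPM unlesioned and 86.4, 92.0 and 55.3 at 4dpl. Uhrf1 had 82.3, 40.2 and 29.4 CPM in the unlesioned control, 59.4, 52.6 and 34.6 in the control at 4dpl, 29.5, 48.9 and 26.7 in the unlesioned mutant and 49.7, 57.1 and 28.1 in the mutant at 4dpl. The highest library for both genes was the same unlesioned one, control replicate 1, and conditions overlapped for both. Averaged over the genotypes the log2 change was 0.44 for Dnmt1 (standard error 0.24, adjusted p = 0.139) and 0.15 for Uhrf1 (standard error 0.27, adjusted p = 0.658), by edgeR, the latter becoming -0.12 under the alternative factors. Without control unlesioned replicate 1 the change of Dnmt1 was 0.75 and was called (adjusted p = 0.00498, edgeR). That alternative also called Tet2 (log2 0.48, adjusted p = 0.0246) and Tdg (log2 0.99, adjusted p = 0.00614), by edgeR, which made 4 called members in place of 1. With all 12 libraries, limma voom with sample weights called the same 3 genes beside Dnmt3a. These were Dnmt1 (log2 0.72, adjusted p = 0.00353), Tet2 (0.51, adjusted p = 0.00943) and Tdg (0.97, adjusted p = 0.00512). Both settings also called more of all genes. Without control unlesioned replicate 1, 6010 of 33892 genes were called higher and 6863 lower. By voom 6382 of 31109 were called higher and 8043 lower, against 4423 and 5771 in the main fit.

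The correlation of Dnmt1 with Uhrf1 was r = 0.899 over the 12 libraries (Spearman rho 0.909), 0.946 within the 6 unlesioned and 0.969 within the 6 lesioned libraries. Both followed the summed level of 18 markers of cycling cells, which ran from 614 to 1581 CPM and was highest in control unlesioned replicate 1. For Uhrf1 r was 0.934 (rho 0.902), 0.957 within unlesioned and 0.923 within lesioned libraries, and for Dnmt1 it was 0.788 (rho 0.797), 0.863 and 0.91. The summed level of 8 macrophage markers was followed as well, with r of 0.738 for Dnmt1 (rho 0.72) and 0.78 for Uhrf1 (rho 0.797), and 3 of these 8 were called higher after lesion. None of the 18 cycling markers was called after lesion averaged over the genotypes, and 4 were called higher without control unlesioned replicate 1. The genes most like Dnmt1 included Nek2 (r = 0.951), a kinase of mitosis, after Ptafr (0.953) and before Mpp1 (0.948), and those most like Uhrf1 were Ptpn7 (0.952), Tes (0.951) and Slc1a5 (0.95). These correlations are descriptions over libraries that share lesion state and depth, and the part of cycling cells or macrophages in the levels of Dnmt1 and Uhrf1 was not tested.

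**Figure D3:**
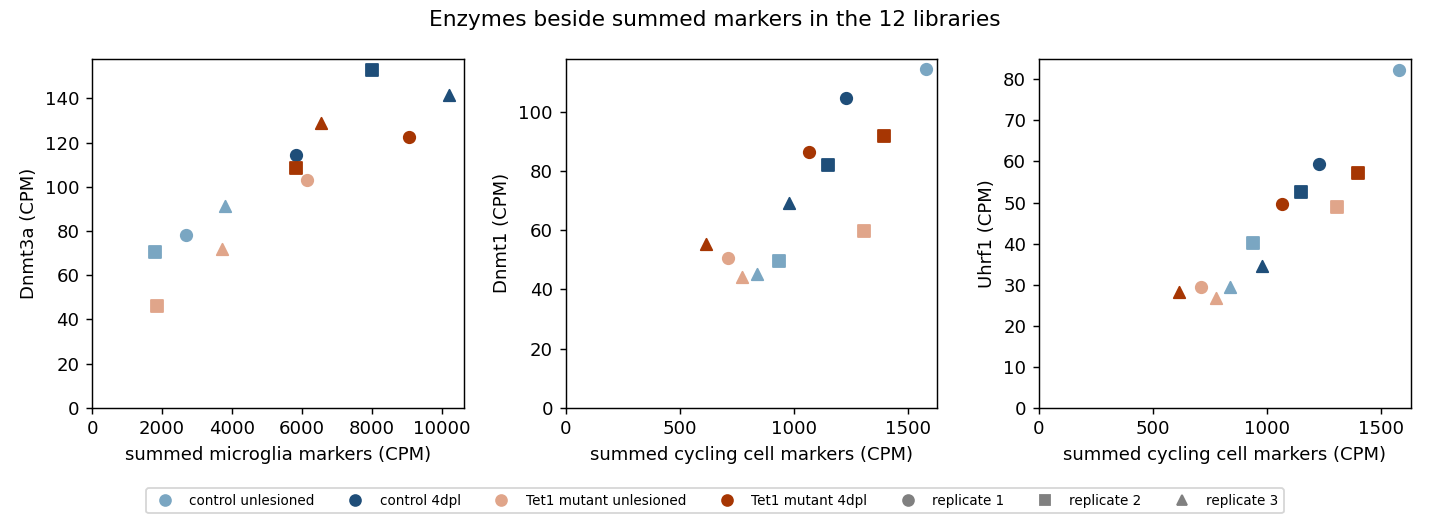
CPM of Dnmt3a against the summed CPM of 8 microglial markers, and CPM of Dnmt1 and of Uhrf1 against the summed CPM of 18 cycling-cell markers, with 1 point per library, colour for the group and shape for the replicate. Dnmt3a, between 46.2 and 153 CPM, is higher in libraries with a higher microglial sum, and Uhrf1, between 26.7 and 82.3 CPM, in those with a higher cycling sum.

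Dnmt3b, the other de novo enzyme (ENSMUSG00000027478, chromosome 2, 153649450 to 153687730, plus strand), was scarce, with 2.76 to 6.86 CPM and 122 to 365 counts per library, and its averaged log2 change was -0.08 (standard error 0.23). Of the length-scaled total of the 3 DNMT genes, Dnmt3b made up 6.23% to 7.24% in the 3 unlesioned control libraries and 3.50% to 4.46% in the 3 control libraries at 4dpl. In the mutant its share was 4.99% to 8.79% unlesioned and 4.09% to 5.55% at 4dpl, with overlap. Its share differed by -2.30 percentage points between 4dpl and unlesioned libraries, with a p of 0.01 by the exact two-sided permutation test. The adjusted p was 0.12 over 12 tests, so it did not pass, and this test was added after the values were seen. Without length scaling the difference was -1.27 points (unadjusted p = 0.015, same test). With the label number as a block the unadjusted p of the permutation test was 0.03125, and the share was lower at 4dpl in every same-numbered pair. With 1 library left out the length-scaled difference lay between -2.69 and -1.74 points. Dnmt1 made up 55.8% to 59.3% in the group means and Dnmt3a 33.9% to 40.04%, and neither passed the exact permutation test (p = 0.625 and 0.38 with lesion). The methods count only reads with a unique alignment, so reads fitting both Dnmt3b and its close copy Dnmt3c would be left out.

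Tdg (ENSMUSG00000034674, chromosome 10, 82629828 to 82650799, plus strand) had 22.5, 7.18 and 7.76 CPM in the unlesioned control, 23.5, 17.1 and 10.9 in the control at 4dpl, 14.4, 16.9 and 7.81 in the unlesioned mutant and 18.5, 21.7 and 24.3 in the mutant at 4dpl. All 3 lesioned mutant libraries were above the unlesioned mutant ones, whereas the control overlapped. The averaged log2 change was 0.59 (standard error 0.30, adjusted p = 0.124, edgeR) and was not called. It was called with a block on the label number within genotype (0.69, adjusted p = 0.0305, edgeR) or on the file number (0.93, adjusted p = 0.0347, edgeR). Neither number is known to mark libraries of 1 animal. Exons of Glt8d2 on the other strand cover 6.83% of the exon length of Tdg, and the strand setting of the counting was not given in the sources used here.

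Mbd3 (ENSMUSG00000035478, chromosome 10, 80392539 to 80399550, minus strand) had the largest interaction of genotype and lesion among the 9 genes. It had 68.0, 70.2 and 61.2 CPM in the unlesioned control and 56.3, 72.1 and 60.9 in the control at 4dpl. In the mutant it had 60.1, 42.6 and 46.2 CPM unlesioned and 84.1, 72.1 and 91.2 at 4dpl. Mutant libraries did not overlap between conditions and were higher at 4dpl, and the unlesioned mutant libraries were all below the unlesioned controls. The log2 change with lesion was 0.73 in the mutant (95% interval 0.29 to 1.18, adjusted p = 0.0593, edgeR) and -0.08 in the control (95% interval -0.52 to 0.36). The interaction was 0.81 (95% interval 0.18 to 1.43) with an unadjusted p of 0.0148 and an adjusted p of 0.9999 by edgeR, so it did not pass over all genes. In unlesioned tissue the mutant differed from the control by -0.42 (adjusted p = 0.971, edgeR). The change in the mutant was called without control unlesioned replicate 1 (log2 0.76, adjusted p = 0.0346, edgeR) or without mutant unlesioned replicate 1 (log2 0.92, adjusted p = 0.0360, edgeR). It was also called by DESeq2 (log2 0.60, adjusted p = 0.0275), by voom (0.73, adjusted p = 0.0196) and by the newer form of the edgeR fit (0.73, adjusted p = 0.0394). In the mutant DESeq2, voom and the newer edgeR fit called 5295, 6800 and 4430 of all genes, against 42 in the main fit. With a block on the label number or the file number, no gene was called in the mutant. Under the alternative factors the change of Mbd3 in the mutant was 0.43.

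**Figure D4:**
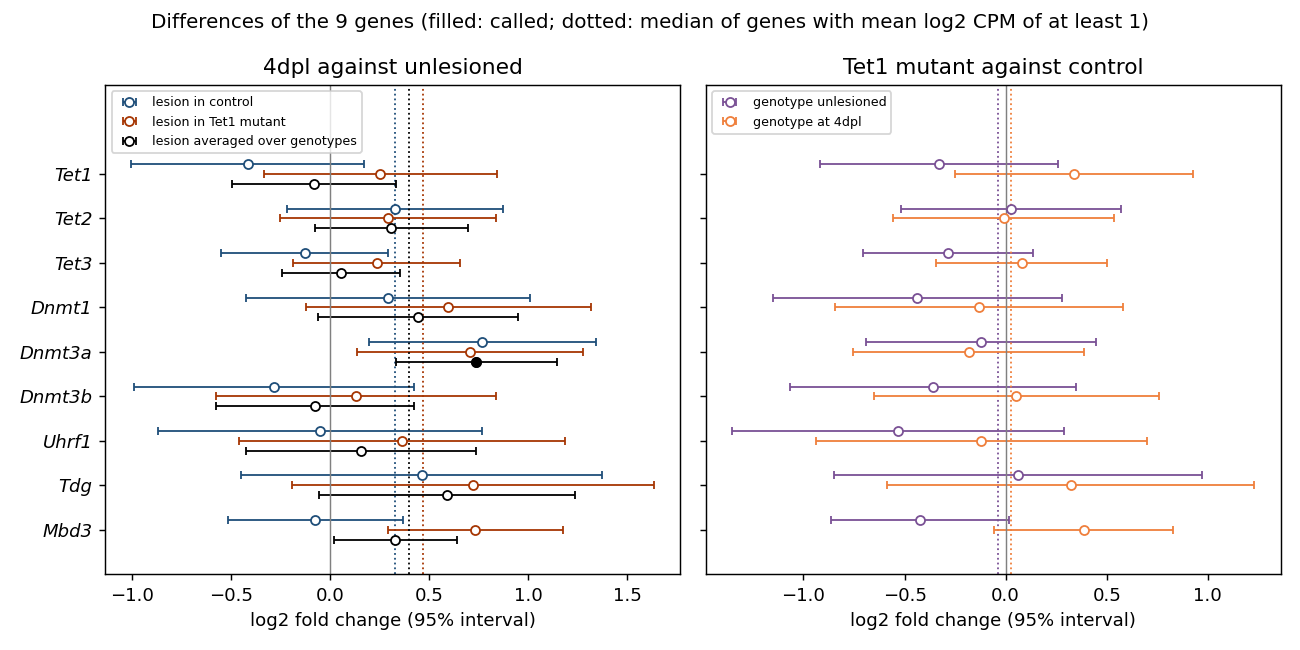
Log2 fold change with its 95% interval for each gene, at the left for 4dpl against unlesioned in the control, the mutant and averaged, and at the right for mutant against control in each condition. The one filled point, a call, is Dnmt3a averaged over genotypes at 0.74, and dotted lines mark the median of genes with a mean log2 CPM of at least 1.

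In the lesion comparison of the control, 0 of 9 members were called and 10.1% of all genes were, 5.12% being higher. In that of the mutant, 0 of 9 members and 0.135% of all genes were called. That share moved with the method: 42 genes were called here, 5295 by DESeq2 (1 member) and 6800 by voom (3 members). With a block on the label number or the file number, no gene was called. Libraries did not overlap for 2 of 9 members in the control (Tet1 lower and Dnmt3a higher at 4dpl), against 37.9% of all genes, and for 3 of 9 in the mutant (Dnmt3a, Tdg and Mbd3, all higher at 4dpl), against 42.0%. Between the genotypes, libraries did not overlap for 2 of 9 members unlesioned (Tet3 and Mbd3, lower in the mutant), against 10.4% of all genes, and for 0 of 9 at 4dpl, against 12.8%. For the genotypes unlesioned, the genotypes at 4dpl and the interaction, edgeR called 0% of all genes and none of the members. At an unadjusted p under 0.05 it found 1624, 2153 and 1184 genes, and DESeq2 called 45 and 227 genes between the genotypes in the 2 conditions, while limma voom called 34 at 4dpl.

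Nearest in pattern over the 12 libraries were, for Tet1, Ccdc187 (r = 0.944), for Tet2, Mdm4 (0.965), which restrains p53, for Tet3, Trim7 (0.878), for Dnmt3b, Rtl5 (0.869), for Tdg, Vps26b (0.955) and for Mbd3, Rala (0.931). These are the highest of 13614 correlations each and carry no test.

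Genes around the 9 members were taken as 6 lists with 96 genes in all. After lesion, averaged over the genotypes, 27 of them rose (28.1%) and 3 fell (3.12%). Of the 83 with a mean log2 CPM of at least 1, 32.5% rose, close to the 31.9% of all such genes. Under the alternative factors 9 rose and 6 fell, and without control unlesioned replicate 1 the counts were 44 and 3. Of all genes, 1810 rose and 7849 fell under the alternative factors, and 6010 rose and 6863 fell without that library. In the main fit 4423 of all genes rose and 5771 fell.

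In the list of TET partners and of genes for the TET cofactors 2-oxoglutarate and ascorbate, 9 of 19 genes rose and 2 fell, and the list median was 0.45 on the log2 scale. They included the isocitrate dehydrogenases Idh3a (log2 0.93, standard error 0.16), Idh3b (0.74, standard error 0.15) and Idh2 (0.68, standard error 0.15), and the ascorbate transporter Slc23a2 (1.19, standard error 0.26). Idh3a, Idh3b and Slc23a2 were called under the alternative factors too. The isocitrate dehydrogenases are enzymes of central metabolism and are not particular to DNA demethylation.

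In base excision repair, the path that replaces the base removed by TDG, 4 of 19 genes rose and none fell (list median 0.31). These were the cytidine deaminase Apobec1 (log2 1.502, standard error 0.25), known for editing RNA, the DNA break sensor Parp1 (1.03, standard error 0.20), the abasic site nuclease Apex1 (0.85, standard error 0.18) and the uracil glycosylase Smug1 (0.73, standard error 0.23). The first 3 were also called under the alternative factors. In the NuRD complex, which holds MBD3, 4 of 13 rose (list median 0.30): the histone binding subunits Rbbp7 (log2 0.71, standard error 0.16) and Rbbp4 (0.64, standard error 0.18), the deacetylase Hdac2 (0.60, standard error 0.15) and Mta2 (0.65, standard error 0.21), of which Rbbp7 was called under the alternative factors.

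In the cycle that supplies methyl groups, 6 of 20 genes rose and 1 fell (list median 0.43). The largest of these rises was in Mtrr, the reductase that reactivates methionine synthase (log2 1.105, standard error 0.21, the only one of the list still called higher under the alternative factors), and the folate enzyme Mthfd1 rose as well (0.69, standard error 0.19). Ahcy, which breaks down the methyltransferase product S-adenosylhomocysteine, rose by 0.595 on the log2 scale (standard error 0.15) and the folate enzyme Shmt2 by 0.59 (standard error 0.17). Among methyl-CpG readers, 2 of 13 rose, Mbd1 (log2 0.74, standard error 0.19) and Zbtb38 (0.49, standard error 0.16). Among partners of the writers, 2 of 12 rose, the UHRF1 relative Uhrf2 (log2 0.54, standard error 0.15) and the replication clamp Pcna (0.49, standard error 0.15). Under the alternative factors no gene of the reader list or of the writer list was called higher and 1 of each was called lower, Ncor1 (log2 -0.63) and Usp7 (log2 -0.57), named after their values were seen. The 3 genes called lower, Sall4, Wt1 and Mat1a, had a mean log2 CPM under 1, and they are named after their values were seen. In the control alone, 10 of these 96 genes were called, all higher, and in the mutant alone none was, where 10.1% and 0.135% of all genes were called.

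**Figure D5:**
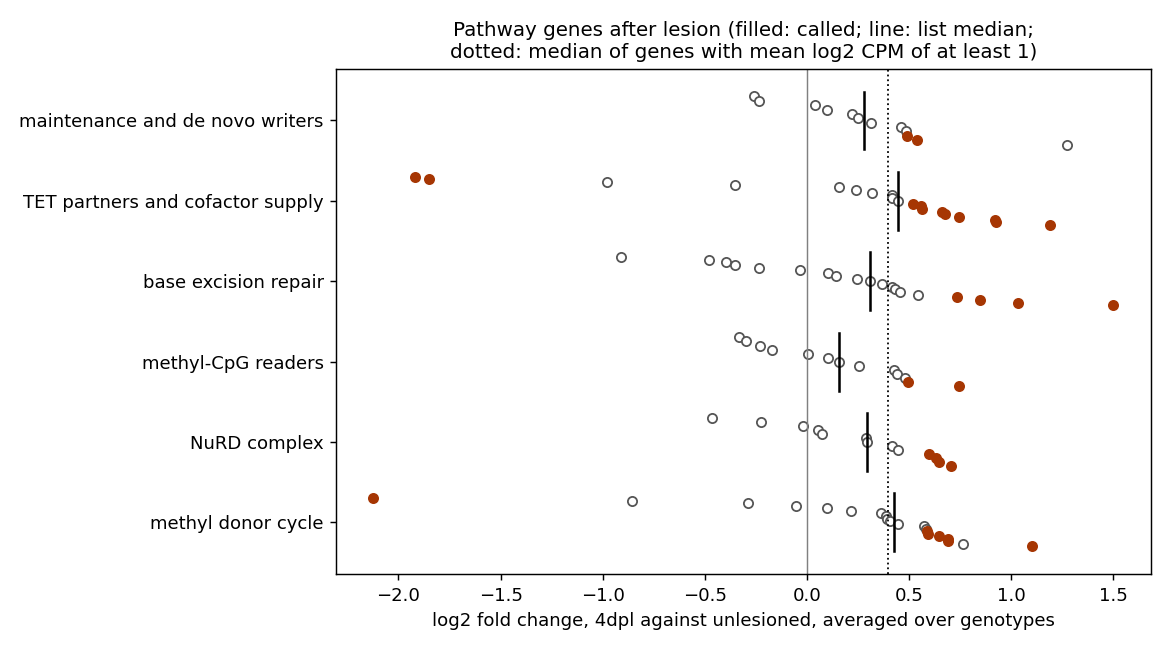
Log2 fold change after lesion averaged over genotypes (x axis) for every gene of the 6 pathway lists (rows), filled where called, with a line at each list median and a dotted line at 0.40, the median of genes with a mean log2 CPM of at least 1. The list medians run from 0.16 for the methyl-CpG readers to 0.45 for the TET partners and cofactor supply, around that line.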

How the data were processed

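Per the labels and the study's methods, the authors prepared libraries with an ultra-low-input kit, sequenced 100-base read pairs, aligned them to mm10 and deposited raw counts per gene, made with featureCounts and an Ensembl annotation of GRCm38. The processing notes name STAR and DESeq2 1.2.5, whereas the methods name BWA. All 37 mitochondrial genes have a count of 0. Tests were run on the counts with edgeR 4.0.16 in R 4.3.3, where filterByExpr kept 31109 genes, libraries were scaled by TMM, and group means were fitted to all 12 libraries with glmQLFit and tested with glmQLFTest. Calls needed p under 0.01 and Benjamini-Hochberg adjusted p under 0.05. Standard errors came from the log2 fold change and F statistic. On simulated counts for the control lesion comparison (29196 genes), edgeR recovered 96% of 200 genes changed by 3 on the log2 scale, with 12 false calls. DESeq2 recovered 98% with 59 false calls, the newer edgeR fit 95% with 22, and voom 89% with 8. Shares used exact permutation tests in Python 3.11.15. Members and lists were chosen with earlier results of these data known. Named genes were the 9 members, Olig1, up to 4 called genes of each list with the smallest p, and the 3 genes most alike to each member, of which only the nearest is given for 6 members. Markers and the 3 genes called lower were named after their values were seen. The methods describe 3 biological replicates per condition. The paper states that the lesioned region and the opposite, unlesioned side were both used, but which animal gave which library is not given in the sources used here. Libraries were therefore not matched by animal, and p-values measure the spread between these libraries. Alternatives were DESeq2 1.42.0, limma 3.58.1 with voom, other scalings, filters and blocks, and leaving out each library. The lowest count of a member in a library was 122, and counting error is part of the spread the tests use.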

Additional observations from a re-analysis of the deposited data

How the results depend on the processing

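The call of Dnmt3a in the averaged lesion comparison held under DESeq2, voom, RLE scaling, no filter, the legacy FALSE fit of edgeR, the block on the label number and each left-out library, with 1 to 4 members called when 1 library was left out. It was lost with at least 10 counts in every library (0 members, log2 0.46), with factors from those genes (0 members, log2 0.46) and with a block on the file number (log2 0.79, adjusted p = 0.0560, edgeR). The last factors, and a replicate block by label number within genotype (2 members), were chosen after seeing the data. These 2 blocks, by label number within genotype (log2 0.69, adjusted p = 0.0305, edgeR) and by file number (0.93, adjusted p = 0.0347), both called Tdg. voom called 4 members (Dnmt3a, Dnmt1, Tet2 and Tdg). Genes called in the averaged comparison were 3591 with at least 10 counts in every library and 5300 with the file number block, and of all calls 4423 were higher by TMM against 1810 by the alternative factors. The causes were not tested.

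In the control, called genes were 6996 by DESeq2 (1 member, Dnmt3a), 5948 by legacy FALSE, 9663 by voom (1 member, Dnmt3a), 1295 with at least 10 counts and 1002 with the file number block, and 1 to 7401 with a library left out (0 to 2 members). In the mutant they were 5295 by DESeq2 (1 member, Mbd3), 4430 by legacy FALSE (1 member, Mbd3), 6800 by voom (3 members, Mbd3, Dnmt3a and Dnmt1), 947 with no filter, 231 with the alternative factors, 0 with either the label or the file number block, 4 with the label block within genotype, and 0 to 4498 with a library left out (0 to 2 members). Between the genotypes they were, unlesioned, 45 by DESeq2, 1 by legacy FALSE, 9 with no filter and 0 to 1 with a library left out, and at 4dpl 227 by DESeq2, 34 by voom, 4 with no filter and 0 to 48 with a library left out.

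Signs turned for members that were not called. Under voom these were Uhrf1 in the control (0.291), Dnmt3b averaged (0.149), Tet2 (0.008) and Uhrf1 (0.020) between genotypes at 4dpl and the Tdg interaction (-0.030). With no filter they were Uhrf1 (0.054) and Mbd3 (0.040) in the control, Tet1 (0.009) and Dnmt3b (0.018) averaged, and Tet3 (-0.005) and Dnmt3b (-0.019) at 4dpl. DESeq2 and RLE turned Dnmt3b in the mutant (-0.007 and -0.006) and Tet3 averaged (-0.044 in each). With at least 10 counts, and with factors from those genes, Tet1 (-0.051 and -0.052), Tet2 (-0.005), Tet3 (-0.078) and Dnmt3b (-0.186) turned in the mutant, and Tet3 (-0.236) and Uhrf1 (-0.123) averaged. Under the replicate block by file number Uhrf1 in the control (0.701), Dnmt3b (-0.059) and Uhrf1 (-0.022) in the mutant and the interactions of Dnmt1 (-0.640), Dnmt3a (0.146), Dnmt3b (-0.018), Uhrf1 (-0.724) and Tdg (-0.983) turned. Under the label block within genotype Uhrf1 in the control (0.052) and the Dnmt3a interaction (0.012) turned.

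With a library left out, the ranges of log2 differences that crossed 0 were, in the control, -0.316 to 0.518 (Uhrf1), -0.165 to 0.011 (Tet3) and -0.161 to 0.024 (Mbd3). In the mutant they were -0.073 to 0.381 (Dnmt3b) and -0.055 to 0.500 (Tet1), and averaged -0.172 to 0.070 (Dnmt3b) and -0.224 to 0.052 (Tet1). Between genotypes unlesioned they were -0.676 to 0.122 (Dnmt1), -0.850 to 0.010 (Uhrf1), -0.257 to 0.325 (Tet2), -0.222 to 0.806 (Tdg) and -0.451 to 0.129 (Dnmt3a). At 4dpl they were -0.038 to 0.150 (Tet3), -0.351 to 0.062 (Dnmt1), -0.163 to 0.191 (Dnmt3b), -0.406 to 0.126 (Uhrf1), -0.077 to 0.040 (Tet2) and -0.007 to 0.615 (Tdg). For the interaction they were -0.254 to 0.544 (Dnmt1), -0.131 to 0.730 (Uhrf1), -0.484 to 0.559 (Tdg), -0.335 to 0.247 (Tet2) and -0.313 to 0.268 (Dnmt3a). Shares moved, in percentage points, from -5.10 to 0.647 (Dnmt1 with lesion), and with genotype from -0.865 to 0.847 (Tet1), -3.35 to 2.40 (Dnmt1) and -2.38 to 3.78 (Dnmt3a).

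Same-numbered libraries by the labels deviated together over 13616 genes with correlations of 0.323, 0.215 and 0.314 in the control and 0.202, 0.321 and 0.067 in the mutant. File numbers gave -0.245 to 0.202. The label correlations were all positive, but such values cannot show which libraries share an animal. The main tests therefore took neither number as a pairing, and both were used only as blocks in alternatives. With the replicate block by label number Dnmt3a averaged was 0.761.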
